A study of Mus musculus with 8 samples.

Results

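The 9 genes described here mark the steps by which a progenitor becomes an antibody-making B cell, and they were chosen by symbol from 54749 annotated mouse genes. At the pro-B stage, the transcription factors Ebf1 and Pax5 commit a cell to the B lineage, the recombinase subunits Rag1 and Rag2 cut the immunoglobulin loci, and Dntt (terminal deoxynucleotidyl transferase) adds nucleotides at the joints. At the pre-B stage, Vpreb1 and Igll1 form the surrogate light chain that pairs with the first heavy chain. Cd79a and Cd79b, the signalling chains Ig-alpha and Ig-beta, carry the signal of the pre-B receptor and later of the mature B cell receptor. A long-term haematopoietic stem cell (LT-HSC), which can refill the blood system, is not itself a B cell, and most of these genes are best known from cells further down the lineage.

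Bone marrow LT-HSCs of 8 mice were sequenced, with 1 library a mouse and an age of 6 months in all. The asrij floxed group holds replicates 1, 3, 4 and 5, and the asrij KO group holds replicates 2, 3, 4 and 5. The asrij floxed mice carry homozygous floxed alleles of asrij (the gene Ociad1) and served as controls, and the KO is a whole-body knockout, not limited to blood cells. The study's methods give the gate for these libraries as lineage-negative, c-Kit+ Sca1+ CD150+ CD48+ cells, and name CD48- for other LT-HSC measurements. Values are CPM, the reads counted on the most counted transcript of a gene, brought to one library size with edgeR's TMM factors.

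Ociad1 had 31.3 to 66.9 CPM in floxed and 11.7 to 19.7 CPM in KO libraries (log2 fold change -1.58, adjusted p = 0.0249 by edgeR's quasi-likelihood test with Benjamini-Hochberg adjustment over 21902 genes). Floxed replicate 3 stood apart: it had the highest of the floxed values for 8 of the 9 genes and the highest of all 8 libraries for 4, and results are given with and without it. Transcripts of the LT-HSC markers Procr (0.14 to 0.96 CPM), Slamf1, which encodes CD150 (0.88 to 4.39 CPM), and Mecom were low in all 8 libraries. Other members of the same list of 10 stem cell markers were higher, such as Kit (46.8 to 60.2 CPM), Cd48 (35.2 to 55.2 CPM), Cd34 (17.5 to 36.7 CPM) and Gfi1b (11.3 to 61.7 CPM). The 4 haemoglobin genes and 5 other erythroid genes summed to 27526 to 69336 CPM in floxed and 121400 to 294230 CPM in KO libraries. In bulk RNA, fewer cells of a type and less RNA per cell cannot be told apart, which holds for every value below.

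Short promoter stretches are shown first for the members with an E box, the letters CAGGTG read on either strand, the kind of site that E proteins such as E2A bind, because E2A acts with Ebf1 at the start of the B lineage. RefSeq promoters on GRCm38.p6 were available for 8 of the 9 genes, and the 250 bases before the start held this box in 4, against 17.2% of 32851 promoters. Distances below are from the RefSeq start. The GENCODE start of the transcript counted here differs for Cd79a, Vpreb2 and Rag1, where the box begins 38, 95 and 166 bases before it. The capitals mark the E box in 30 bases written 5′ to 3′ on the gene's strand, as CACCTG where the box lies on the other strand, and Vpreb2 is the near copy of Vpreb1.
Vpreb1, chr16:16869326-16869355, minus strand, E box beginning 88 bases before the start: atgacgttccagCAGGTGcttcctcccaga
Vpreb2, chr16:17980321-17980350, plus strand, 232 bases before the start: atgactttccagCAGGTGcttcctcccaga
Igll1, chr16:16863986-16864015, minus strand, 8 bases before the start: ctggggtttggctacacagatcCACCTGca
Cd79a, chr7:24897331-24897360, plus strand, 154 bases before the start: ttgtggccagccCAGGTGcagggcagttcc
Rag1, chr2:101649650-101649679, minus strand, 135 bases before the start: ttcctgaagagcCAGGTGccagctggagct
The stretches of Vpreb1 and Vpreb2 carry the E box in nearly the same surroundings. A match describes the letters only and is not a bound site.

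All 9 genes were detected in every library and passed the low-count filter. Vpreb1 and Cd79a were higher in KO LT-HSCs at an adjusted p under 0.05, which is 2 of 9 genes against 1.22% of all genes tested, and no member was lower, against 1.75% of all genes. Vpreb1 alone also passed the study's further limit of a log2 fold change above 1.5, which 0.452% of all genes passed upwards. For Vpreb1, Igll1, Cd79a and Cd79b every KO library lay above every floxed library, 4 of 9 genes against 7.1% of all genes. The median log2 fold change was 0.66 over the 9 genes and -0.0058 over all genes. The surrogate light chain and signalling chain genes thus separated the genotypes in every library, although Igll1 and Cd79b did not pass. The values of the 5 pro-B genes overlapped, and floxed replicate 3 lay within or above the KO range for each of them.

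**Figure D1:**
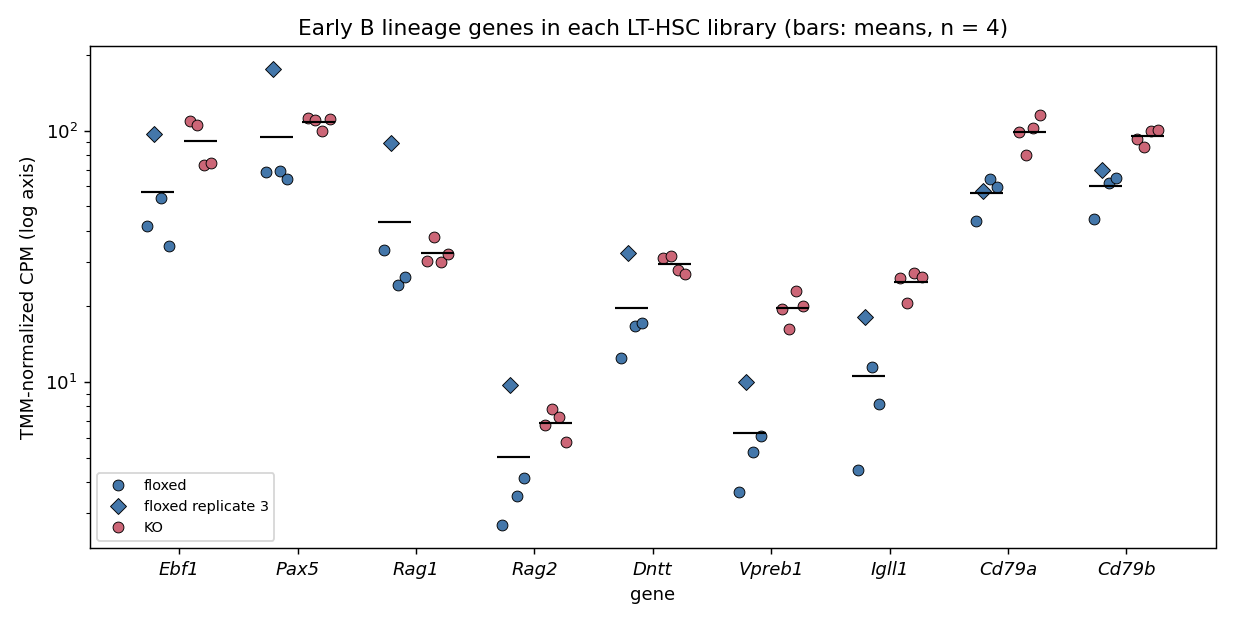
TMM-normalized CPM (vertical log axis) of the 9 genes in each library, blue for floxed and red for KO, with bars at the means of 4 libraries and a diamond for floxed replicate 3. The red points of Vpreb1, Igll1, Cd79a and Cd79b lie above all blue points, and for Pax5 and Rag1 the diamond lies above every other point.

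Vpreb1 (ENSMUSG00000059305.12, GRCm38 chr16:16868403-16869255, minus strand) encodes the variable-like part of the surrogate light chain. It had 3.64, 9.97, 5.27 and 6.09 CPM in the floxed libraries (replicates 1, 3, 4 and 5). The KO libraries (replicates 2, 3, 4 and 5) had 19.6, 16.3, 23.0 and 20.1 CPM. The lowest KO library was above the highest floxed library, which was replicate 3. The mean level was 6.24 ± 2.68 CPM for floxed and 19.8 ± 2.75 CPM for KO mice (SD, n = 4 each), a 3.16-fold ratio. On the log2 scale the difference was 1.66 (standard error 0.29, adjusted p = 0.0266, edgeR). Without floxed replicate 3 it was 1.99 (adjusted p = 0.00093, edgeR). Blocking on the replicate number, which leaves the 3 pairs of libraries numbered 3 to 5, gave 1.53 and the call was lost (adjusted p = 0.118, edgeR). With libraries numbered 1 to 3 and those numbered 4 and 5 as 2 blocks, the call of Vpreb1 was kept (1.65, adjusted p = 0.0070, edgeR).

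Igll1 (ENSMUSG00000075370.12, GRCm38 chr16:16860671-16863985, minus strand) encodes lambda 5, the constant-like partner of Vpreb1, and lies beside it on chromosome 16. Its values were 4.48, 18.1, 11.4 and 8.20 CPM in the floxed libraries (same order) and 25.8, 20.7, 27.2 and 26.1 CPM in the KO libraries. The groups did not overlap, but floxed replicate 3 came close to KO replicate 3. Its log2 fold change of 1.24 (standard error 0.36) did not pass over all genes (adjusted p = 0.0850, edgeR) and was 1.65 without floxed replicate 3 (adjusted p = 0.00827, edgeR). It also passed when libraries numbered 1 to 3 and those numbered 4 and 5 formed 2 blocks (1.24, adjusted p = 0.0378, edgeR). The 2 parts of the surrogate light chain kept a similar proportion to each other: the ratio of Vpreb1 to Igll1 CPM averaged 0.64 ± 0.16 over the floxed and 0.79 ± 0.038 over the KO libraries (SD, n = 4 each), and the groups overlapped.

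Vpreb2 was low, at 0.84, 1.49, 0.98 and 0.54 CPM in floxed and 3.90, 2.89, 2.98 and 4.20 CPM in KO libraries. It was higher in KO LT-HSCs (log2 fold change 1.84, adjusted p = 0.0308, edgeR), and the call was lost with the replicate block (1.79, adjusted p = 0.154, edgeR). The call was kept with numbers 1 to 3 and 4 to 5 as 2 blocks (1.86, adjusted p = 0.0073, edgeR). Of the 50-base stretches of the Vpreb1 transcript, 32.5% also occur in Vpreb2, so reads of the pair cannot be fully separated and Vpreb2 is not a second measurement. Vpreb3, a protein related to the surrogate light chain, had 15.5, 30.6, 27.7 and 24.7 CPM in floxed and 52.1, 35.0, 53.3 and 49.7 CPM in KO libraries. Its groups did not overlap, and its log2 fold change of 0.95 did not pass (adjusted p = 0.0570, edgeR).

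Cd79a (ENSMUSG00000003379.7, GRCm38 chr7:24897381-24902197, plus strand) had 43.9, 57.3, 64.3 and 59.6 CPM in floxed and 98.4, 80.2, 102.1 and 115.1 CPM in KO libraries. Here floxed replicate 3 lay among the other floxed libraries. The means were 56.2 ± 8.75 and 98.9 ± 14.4 CPM (SD, n = 4 each), a 1.76-fold ratio and 0.81 on the log2 scale (standard error 0.17, adjusted p = 0.0408, edgeR). Leaving out floxed replicate 3 hardly moved it (0.83, adjusted p = 0.0159, edgeR), and the replicate block gave 0.72 with the call lost (adjusted p = 0.150, edgeR). With numbers 1 to 3 and 4 to 5 as 2 blocks the call of Cd79a was kept (0.815, adjusted p = 0.0052, edgeR). Of its 50-base stretches, 8.31% also occur in the gene model Gm32220.

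Cd79b (ENSMUSG00000040592.11, GRCm38 chr11:106311341-106314762, minus strand), the partner chain, had 44.4, 69.7, 62.1 and 64.6 CPM in floxed and 93.0, 86.0, 100.01 and 100.8 CPM in KO libraries. The groups did not overlap, and the spread within each was small. A log2 fold change of 0.66 with a standard error of 0.17 did not pass with all 8 libraries (adjusted p = 0.0616, edgeR) and was 0.75 without floxed replicate 3 (adjusted p = 0.0142, edgeR). With those 2 blocks it was 0.66 and passed (adjusted p = 0.0146, edgeR). The ratio of Cd79a to Cd79b CPM averaged 0.94 ± 0.092 over the floxed and 1.04 ± 0.087 over the KO libraries (SD, n = 4 each), near 1 in both genotypes. Vpreb1 and Cd79b also had the highest correlation between any 2 of the 9 genes (r = 0.97 on log2(CPM + 1), 8 libraries of both genotypes). For both genes every KO library lay above every floxed library, so the difference between the genotypes enters this value. The 2 values of a library also share its depth.

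Ebf1 (ENSMUSG00000057098.14, GRCm38 chr11:44617317-45008091, plus strand), the factor that opens the B lineage programme, had 41.7, 97.3, 54.0 and 34.6 CPM in floxed and 109.65, 105.6, 73.1 and 74.1 CPM in KO libraries. Floxed replicate 3 lay inside the KO range and the other floxed libraries below it. The change of Ebf1 on the log2 scale was 0.67 (standard error 0.31, adjusted p = 0.251, edgeR) with all libraries and 1.07 without floxed replicate 3 (adjusted p = 0.0131, edgeR).

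Pax5 (ENSMUSG00000014030.15, GRCm38 chr4:44524757-44710487, minus strand), which fixes B cell identity, had 68.7, 176.2, 69.0 and 64.2 CPM in floxed and 112.1, 109.9, 99.8 and 110.7 CPM in KO libraries. Floxed replicate 3 was the highest of all 8, and the other floxed libraries lay below every KO library. For Pax5 the log2 fold change was 0.19 (standard error 0.32, adjusted p = 0.773, edgeR) with all libraries and 0.70 without floxed replicate 3 (adjusted p = 0.00318, edgeR). Within replicate numbers 1 to 3 it was -0.14 and within 4 and 5 it was 0.66, and the difference between these was not tested.

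Within Ebf1 and Pax5 the counts were not spread in the same way in the 2 genotypes. Both genes have an annotated transcript that stops short of the full 3′ end, so the counts of the last 3096 bases of Ebf1 (chr11:45004996-45008091) and the last 6388 bases of Pax5 (chr4:44524757-44531144) can be separated from the rest. This end part held 49.1%, 32.8%, 44.1% and 45.3% of the Ebf1 counts in floxed libraries and 25.5%, 28.6%, 25.3% and 25.1% in KO libraries. For Pax5 it held 70.6%, 65.3%, 63.3% and 67.3% in floxed and 51.5%, 56.4%, 51.7% and 54.9% in KO libraries. In both genes every KO share was below every floxed share, floxed replicate 3 included. Of 5062 genes with such a pair of transcripts, 1.58% showed this order and 9.3% the opposite one. For those genes the shorter transcript was set by rule, as the latest to end at least 1000 bases early. The Ebf1 shares above use a shorter transcript than that rule allows. With the transcript that leaves out only the last 2562 bases, the Ebf1 shares were 24.3% to 36.0% in floxed and 19.7% to 22.7% in KO libraries. The order was the same, with a narrower gap. The median share over these genes was 48.9% to 64.3% in floxed and 61.1% to 63.1% in KO libraries.

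The counts before the end part can be read on their own. Before the last 6388 bases, Pax5 had 766, 3231, 596 and 548 counts in floxed and 2122, 1843, 1358 and 1379 counts in KO libraries. Floxed replicate 3 was again the highest. With the next lower counted transcript in place of the highest one, a choice made after the data were seen, the log2 fold change of Pax5 was 0.65 (adjusted p = 0.300, edgeR). For Ebf1 that transcript leaves out the last 2562 bases, not the whole end part, and gave 0.85 (adjusted p = 0.1995, edgeR). Neither passed. The counts include introns and both strands, and the antisense gene Gm12462 inside Pax5 held 64, 336, 79 and 66 counts in floxed and 358, 322, 197 and 156 in KO libraries. The antisense gene Gm12158 inside Ebf1 held 9, 87, 24 and 0 counts in floxed and 221, 190, 92 and 72 in KO libraries. Reads of these and of the host genes cannot be told apart.

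**Figure D2:**
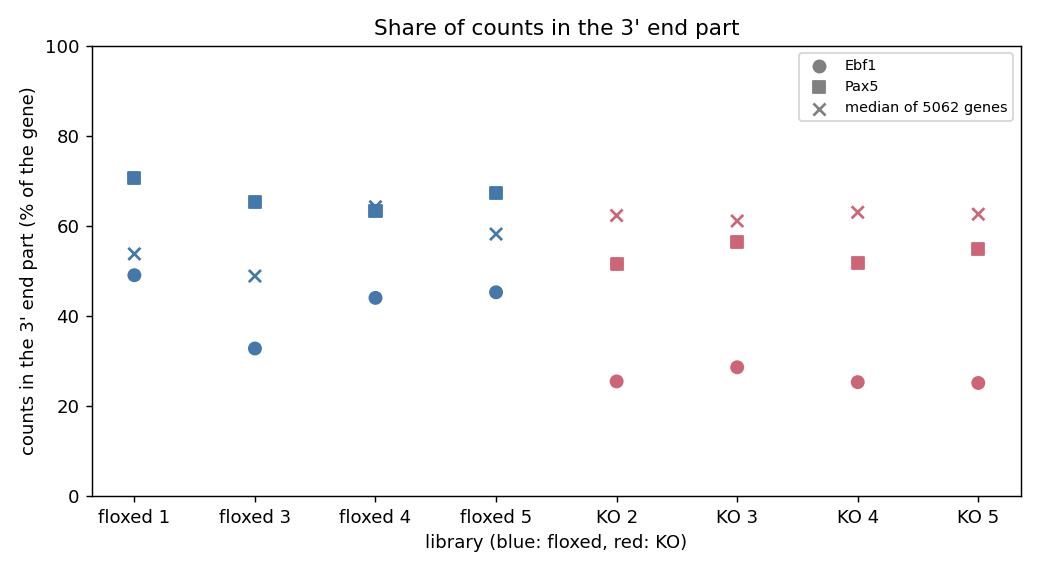
Share of a gene's counts (percent, vertical axis) that fell in its 3′ end part, for Ebf1 (circles), Pax5 (squares) and the median of 5062 genes with nested transcripts (crosses), in each of 8 libraries, blue for floxed and red for KO. Every KO circle and square lies below every floxed one, while the KO crosses lie between 61.1% and 63.1%.

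Rag1 (ENSMUSG00000061311.6, GRCm38 chr2:101638282-101649501, minus strand), the catalytic recombinase subunit, had 33.6, 89.3, 24.3 and 26.2 CPM in floxed and 30.3, 37.7, 29.9 and 32.3 CPM in KO libraries. Floxed replicate 3 was the highest, and the other floxed libraries overlapped with the KO libraries. It was the only member with a negative log2 fold change (-0.41, standard error 0.39, adjusted p = 0.583, edgeR), and without floxed replicate 3 the sign turned (0.23, adjusted p = 0.354, edgeR).

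Rag2 (ENSMUSG00000032864.4, GRCm38 chr2:101624718-101632529, plus strand), its partner, had 2.69, 9.70, 3.53 and 4.14 CPM in floxed and 6.77, 7.78, 7.24 and 5.80 CPM in KO libraries. Floxed replicate 3 was again the highest and the other floxed libraries were below every KO library. For Rag2 the log2 fold change was 0.45 (standard error 0.37, adjusted p = 0.527, edgeR) with all libraries and 1.01 without floxed replicate 3 (adjusted p = 0.0136, edgeR). The annotated gene B230118H07Rik spans both Rag genes, so reads assigned to it and to them are shared, and only 67 to 213 of its counts per library lay outside the Rag counts.

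Rag1 was lower relative to Rag2 in KO than in floxed libraries, with a narrow gap between the groups. The ratio of Rag1 to Rag2 CPM was 12.5, 9.20, 6.88 and 6.33 in floxed and 4.47, 4.85, 4.14 and 5.57 in KO libraries. Every KO ratio was below every floxed ratio, with floxed replicate 3 inside the floxed range. The closest ratios, 6.33 in floxed and 5.57 in KO replicate 5, rest on 108 and 160 Rag2 counts. How often the ratios of other gene pairs lie apart over all genes was not counted. The ratios were chosen after the values were seen and were not tested. The ratio of Ebf1 to Pax5 overlapped between the genotypes.

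Dntt (ENSMUSG00000025014.13, GRCm38 chr19:41029275-41059525, plus strand) had 12.5, 32.6, 16.7 and 17.2 CPM in floxed and 31.2, 31.6, 27.9 and 27.0 CPM in KO libraries. Floxed replicate 3 was the highest of all 8, and the other floxed libraries stood below every KO library. Its log2 fold change was 0.57 (standard error 0.27, adjusted p = 0.255, edgeR) and 0.94 without floxed replicate 3 (adjusted p = 0.00564, edgeR).

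Without floxed replicate 3, every KO library lay above the remaining floxed libraries for 8 of the 9 genes, against 15.2% of 21902 genes, and 8 of 9, all but Rag1, were higher at an adjusted p under 0.05 (edgeR). Far more genes passed in that fit over the whole table as well: 8.9% of 22094 genes were higher and 8.64% lower. Floxed replicate 3 was set apart by these same values, as the highest floxed library for 8 of the 9 genes. Leaving it out therefore raises their difference by construction. The shares over all genes are not limited to genes with that trait, so no conclusion is drawn from the counts. With any other library left out, no member passed, and the number of genes passing over the whole table fell to 61 to 264. The level of floxed replicate 3 relative to the mean of the other floxed libraries ran from 1.02-fold for Cd79a and 1.22-fold for Cd79b to 2.62-fold for Pax5 and 3.19-fold for Rag1. It was thus nearest to the other floxed libraries for the receptor chains and farthest for Pax5 and the Rag genes.

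**Figure D3:**
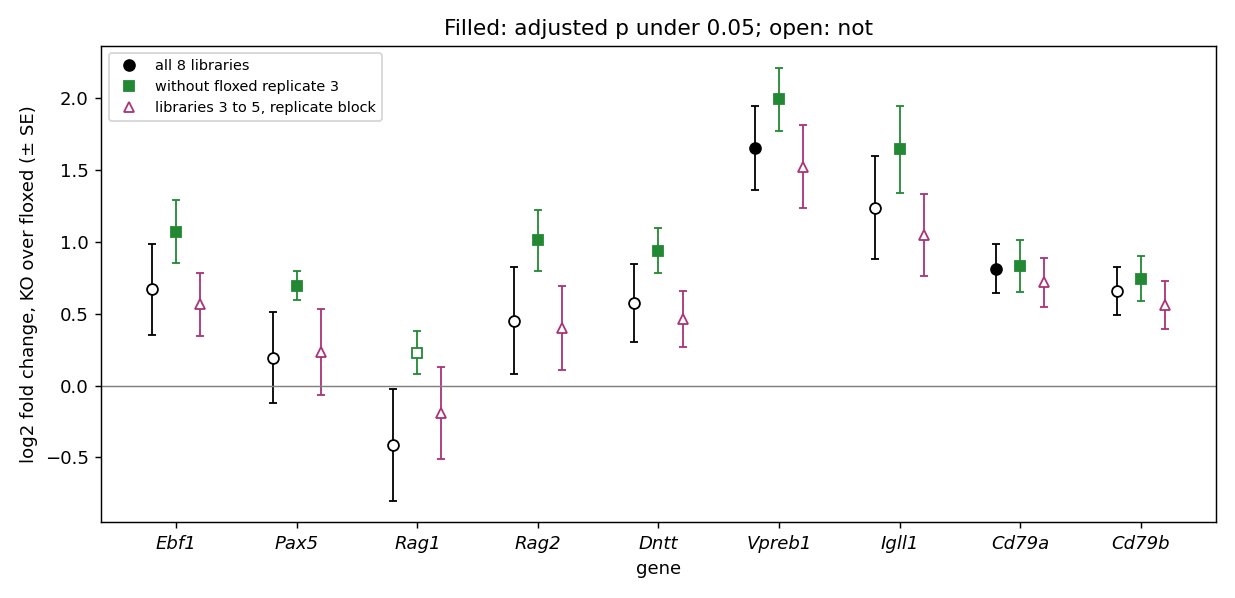
Log2 fold change of KO over floxed libraries (vertical axis, with standard error) of each gene with all 8 libraries (circles), without floxed replicate 3 (squares) and for libraries 3 to 5 blocked by number (triangles), filled where the adjusted p was under 0.05. Circles are filled for Vpreb1 and Cd79a, squares for all genes but Rag1, and no triangle is filled.

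Per kilobase of spliced transcript, the levels in floxed libraries ran from Cd79b (42.1 ± 7.66 CPM per kb, SD, n = 4) and Cd79a (38.6 ± 6.01) through Igll1 (12.1 ± 6.63), Pax5 (11.8 ± 6.81), Ebf1 (9.51 ± 4.70), Dntt (9.27 ± 4.14), Vpreb1 (8.15 ± 3.50) and Rag1 (6.56 ± 4.67) to Rag2 (1.46 ± 0.93). Neighbours in this order overlapped in their ranges except Cd79a and Igll1, and Rag1 and Rag2. In KO libraries Cd79a (67.9 ± 9.88 CPM per kb) and Cd79b (66.4 ± 4.84) again led, and Igll1 (28.7 ± 3.35) and Vpreb1 (25.8 ± 3.60) stood above Ebf1 (15.1 ± 3.30), Dntt (13.8 ± 1.10) and Pax5 (13.5 ± 0.71). Both surrogate light chain genes thus had ranges above those of the pro-B genes in KO but not in floxed libraries. The counts include introns, whose length this scale leaves out, and the order depends on that. Per kilobase of genomic span, the floxed means were 17.6 CPM per kb for Cd79b, 11.7 for Cd79a, 7.32 for Vpreb1, 3.86 for Rag1, 3.18 for Igll1, 0.65 for Dntt, 0.64 for Rag2, 0.51 for Pax5 and 0.15 for Ebf1. In floxed libraries Cd79b and Cd79a led on both scales, while Pax5 and Ebf1, the genes with the longest spans, stood last per span. In KO libraries the mean of Vpreb1 per span (23.2 CPM per kb) lay between those of Cd79b (27.75) and Cd79a (20.5).

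Other genes of the same steps were taken as 4 lists. Of all genes tested, 1.22% passed as higher and 1.75% as lower. Among 15 further pro-B and common lymphoid genes, 1 passed as higher (Vpreb2), none passed as lower, and the median log2 fold change was 0.39. None of 13 genes of pre-B receptor signalling passed (median -0.28), and the 2 largest changes were those of Ikzf3 (Aiolos; -0.97, adjusted p = 0.204, edgeR, and -0.37 without floxed replicate 3) and Cd24a (a surface glycoprotein; 0.55, adjusted p = 0.179, edgeR). Of 16 mature B genes 1 passed, Ighd, the delta heavy chain (median 0.22). It had 38.8, 42.6, 37.2 and 36.1 CPM in floxed and 64.9, 61.0, 59.7 and 63.8 CPM in KO libraries (log2 fold change 0.69, adjusted p = 0.0283, edgeR). For Ighd the replicate block gave 0.69 with the call lost (adjusted p = 0.139, edgeR). Numbers 1 to 3 and 4 to 5 as 2 blocks gave 0.69 with the call kept (adjusted p = 0.0040, edgeR). Every KO library was above every floxed library, replicate 3 included. Ighm, the mu heavy chain, was far more abundant, at 655.9 to 980.1 CPM in floxed and 581.6 to 748.7 CPM in KO libraries, with overlapping groups (log2 fold change -0.30, adjusted p = 0.433, edgeR).

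None of 12 genes that join or assist the cut ends during recombination passed (median 0.020). Dclre1c, which encodes the hairpin-opening nuclease Artemis, had the largest change (-0.59, adjusted p = 0.137, edgeR), followed by Prkdc, the DNA-PK catalytic subunit (-0.51, adjusted p = 0.515, edgeR). Without floxed replicate 3 the value of Prkdc turned to 0.049 and that of Dclre1c was -0.42.

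Without floxed replicate 3, 6 of the 15 pro-B genes passed as higher and 2 as lower, beside the 8.9% and 8.64% of all genes given above. The higher ones included Vpreb2 (log2 fold change 2.16), Vpreb3 (1.08), Lef1 (0.90), the kinase Blk (0.72) and the Ets factor Spib (0.71). The lower ones were Cd93 (-0.63) and Ikzf1, which encodes Ikaros (-0.43). In the same fit Blnk (0.996), Bach2 (0.95) and Cd24a (0.71) passed as higher and the kinase Lyn (-0.67) and phospholipase Plcg2 (-0.51) as lower among the signalling genes, so that list moved both ways. Cd72 (0.86), Ighd (0.75), Cd40 (0.53) and Fcrla (0.52) passed among the mature B genes, all higher, and no end-joining gene passed. These genes were named after their values were seen.

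**Figure D4:**
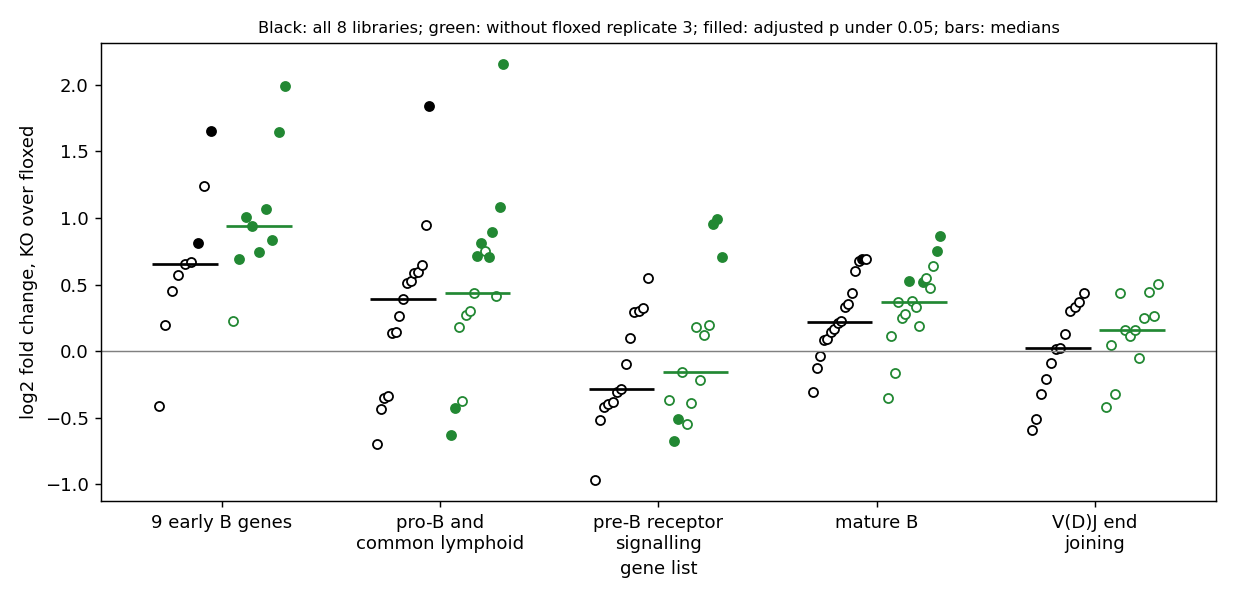
Log2 fold change of KO over floxed (vertical axis) of every gene in the 9 early B genes and in 4 lists of related genes, black with all 8 libraries and green without floxed replicate 3, filled where the adjusted p was under 0.05, with bars at medians. The end-joining genes lie around 0 with no filled point. Of the early B genes, 8 of the 9 green points are filled, but floxed replicate 3 was set apart by the values of these same genes. The green points are therefore not a comparison of the lists.

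Markers of other cells moved with genotype in part. All 9 erythroid markers had a positive log2 fold change (median 1.81) and 4 passed as higher, against 1.22% of all genes. The haemoglobin genes Hba-a1 (2.32, adjusted p = 0.0396, edgeR) and Hbb-bt (2.16, adjusted p = 0.0321, edgeR) led, and the summed levels did not overlap between the genotypes. Of 7 plasma cell markers, 2 passed as lower, against 1.75% of all genes: Jchain (-1.66, adjusted p = 0.0239, edgeR) and Prdm1 (-1.20, adjusted p = 0.0383, edgeR). The 7 summed to 148.7 to 338.3 CPM in floxed and 149.9 to 155.0 CPM in KO libraries. In this list 5 log2 fold changes were negative and 2 positive. Mzb1 went up (0.45, adjusted p = 0.163, edgeR), from 7.73 to 11.1 CPM in floxed to 13.2 to 14.3 CPM in KO libraries, and Sdc1 stayed level (0.026). None of 8 T cell markers tested passed, with the largest changes in Cd3d (-1.55) and Thy1 (-0.69), and Ptcra was at or near 0 in every library. Of the 8, 5 had a negative and 3 a positive log2 fold change, the latter Cd4 (0.44), Cd8a (0.18) and Lck (0.10). Without floxed replicate 3, Cd3d was at -0.41, and Thy1 (-0.94, adjusted p = 0.0264, edgeR) and Cd3e (-0.85, adjusted p = 0.0228, edgeR) passed as lower. In that fit all 9 erythroid markers passed as higher, 4 plasma cell markers passed as lower, and 1 plasmacytoid dendritic cell marker passed in each direction. Over all genes 8.9% passed as higher and 8.64% as lower there, so 1 of 7 in each direction is near the share of all genes. T cell markers summed to 74.8 to 112.7 CPM in floxed and 67.4 to 69.6 CPM in KO libraries. With all libraries none of 7 plasmacytoid dendritic cell markers passed (563.4 to 1290.1 CPM in floxed and 822.02 to 921.1 CPM in KO libraries), where Bst2 (0.73) and Klk1 (0.71) had the largest log2 fold changes. None of the 10 stem cell markers was at 0 in all libraries. With the replicate block none of the erythroid and plasma cell calls was kept (adjusted p = 0.138 to 0.175, edgeR). With numbers 1 to 3 and 4 to 5 as 2 blocks all of them were kept (adjusted p = 0.0059 to 0.0128, edgeR). The part of these cells in the values of the early B genes was not tested.

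Outside the lists, the genes whose level followed the mean of the 9 most closely over the 8 libraries were Syn3 (r = 0.994), Fbln5 (0.992), Ptdss2 (0.991), Agfg2 (0.991) and Tpm1 (0.991), on log2(CPM + 1). None of these 5 passed the test between genotypes (log2 fold changes of 0.51 to 0.99). Of the 9 genes, Dntt lay closest to their mean (r = 0.986) and Rag1 farthest from it (r = 0.441).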

How the data were processed

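Total RNA of sorted LT-HSCs was sequenced from 4 asrij floxed and 4 asrij KO mice. The authors checked reads (FastQC), trimmed them (Trim Galore), aligned them to GRCm38/mm10 transcripts (Bowtie2) and deposited whole-number counts for 138930 transcripts per library, without normalization. The counting tool and versions are not given in the sources used here. In 7 of the 8 files the values are tab-separated under a comma-separated name, so the unit the authors deposited there (counts) was recorded as other.

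Transcripts were mapped to genes with GENCODE M21 (138789 found). A gene took the count of its highest transcript, because reads were counted on several transcripts and over introns and both strands. Library totals were 23412829 to 44874882 gene counts. The fit used edgeR 4.0.16 in R 4.3.3: filterByExpr, TMM factors, the quasi-likelihood functions glmQLFit and glmQLFTest, and p-values adjusted by Benjamini-Hochberg over 21902 genes. On simulated counts with 200 changed genes of 21391, edgeR recovered 83%, with 3.49% of its calls false. Alternatives used limma 3.58.1 and DESeq2 1.42.0, and other steps Python 3.11.15.

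The 9 genes, the lists and the rules were chosen with earlier results of these data known. Genes were named by rule: the 9, Ociad1, Vpreb2, Vpreb3, Ighm, of each list the 2 higher and 2 lower with the largest passing change (or, where none passed, the 2 largest), and the 5 most alike in pattern. Other genes, the single stem and T cell markers among them, were named after their values were seen, and the antisense and spanning genes were named for their overlap. Libraries numbered 3 to 5 occur in both genotypes but come from different mice. Deviations from the genotype mean correlated between libraries of one number (r = 0.366 to 0.554 over 3 pairs). Differently numbered ones within 1 to 3 or within 4 and 5 did so as well (0.344 to 0.58), whereas pairs across these 2 sets ran from -0.564 to -0.331. Libraries of one number were thus no more alike than others of their set. Where the replicate block changed a call, its value is given beside that with the 2 sets as blocks. Of all genes, 48 passed with the former and 4059 with the latter. No sequencing batch was named. No 2 libraries of one genotype agreed within counting noise. Some values of the lists are not reported here.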

Additional observations from a re-analysis of the deposited data

Results flagged for a closer look

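In groups of 4 libraries, 66 in all, 1 library lay far from the rest of its group 6 times (Dixon's gap against the range, at 95%), where about 3.3 would occur by chance. Floxed replicate 3 was far above the other floxed libraries for Pax5 (176.2 CPM against 64.2 to 69.0 CPM), for Rag1 (89.3 CPM against 24.3 to 33.6 CPM) and for the T cell marker Cd3d (19.7 CPM against 2.99 to 3.74 CPM). Floxed replicate 1 was far below the other floxed libraries for Hba-a1 (7132 CPM against 16096 to 17061 CPM). KO replicate 3 stood above the other KO libraries for Ikzf3 (24.3 CPM against 19.7 to 20.3 CPM) and for the share of Ebf1 counts in its 3′ end part (28.6% against 25.1% to 25.5%).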

How the results depend on the processing

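The number of the 9 genes that passed was 2 with all 8 libraries and TMM, 4 with DESeq2, 4 when numbers 4 and 5 formed one block and 1 to 3 another, and 0 with the replicate block. With 1 library left out it ran from 0 to 8. Over all genes it was 651, and 2447 with DESeq2, 4059 with the block for numbers 4 and 5, 48 with the replicate block, and 61 to 3875 with 1 library left out, the highest without floxed replicate 3. In simulated counts, drawn independently for each library and with larger changes than those of the 9 genes, 29% of DESeq2's calls were false. Igll1 passed with DESeq2, with the block for numbers 4 and 5 and without the low-count filter, and Cd79b with the first 2 of these. For Rag1 the log2 fold change ran from -0.61 to 0.23 with 1 library left out, and turned positive without floxed replicate 3. Over the other 10 alternatives with a test, all 90 values of the 9 genes kept their direction. Vpreb1 and Cd79a each passed in 1 of the 8 fits with a library left out, that without floxed replicate 3. The block for numbers 4 and 5 kept the calls of Vpreb1 and Cd79a. The replicate block ended the calls of Vpreb1, Cd79a and the listed genes, and changed no other call among the named genes. The cause of these changes was not tested. Counting depth limits the low genes most: Rag2 had 83 to 513 counts per library and Vpreb1 124 to 764.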
